A study of Mus musculus with 2 samples.

Results

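Among the regulatory T (Treg) cells profiled one by one here, those in which at least 1 Il10 molecule had been captured were described. They were chosen by the measured Il10 count itself, with a limit of 1 unique molecular identifier (UMI, the tag that marks a captured RNA molecule), so that Il10 is a description of the class and not a result about it. They numbered 150 of 7024 cells (2.14%), 40 of 3634 in the control and 110 of 3390 in the rescued library. They are called Il10+ cells below, and the cells with 0 Il10 UMIs are called other cells.

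The cells were GFP+ Treg cells sorted from spleen and lymph nodes of male C57BL/6 mice at 7 months of age. Control mice were Foxp3DTR-GFP/y Cd4creERT2, with Foxp3 expressed throughout life from an allele that also encodes the diphtheria toxin receptor and GFP, and 5 mice were pooled. Rescued mice were Foxp3LSL/y Cd4creERT2, in which a stop cassette blocked Foxp3 until Cre removed it, and 4 mice were pooled. Mice of both groups carried a tdTomato reporter in the Rosa26 locus that the same Cre switches on, and both had received 4-hydroxytamoxifen, which activates this Cre, on postnatal day 14. Because Cre was driven from the Cd4 locus, recombination at treatment was possible in all CD4-expressing cells, thymocytes included. Each group was 1 library made with the 10x Chromium 3′ kit, version 3. With no replicates, no difference below had a replicate check, no test was run, and every interval is a 95% interval that covers counting error only.

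Treg cells are CD4 T cells that need the transcription factor Foxp3 and restrain immune responses. Interleukin-10 (IL-10), the product of Il10, is a secreted cytokine that dampens activation of myeloid cells and T cells, and Treg cells use it above all at barrier surfaces such as the gut. It is made mainly by effector Treg cells, an activated state in which the transcription factors c-Maf and Blimp-1 are known to promote its transcription.

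The libraries were of like depth, with medians of 3739.5 control and 3846.5 rescued UMIs per cell, and 3 cell barcodes occurred in both. Il10+ cells were deeper than other cells, with medians of 4555.5 against 3737 UMIs in the control and 4606 against 3806 UMIs in the rescued library. Their median mitochondrial share was lower, at 7.93% against 9.45% and 7.77% against 9.11%. Of the 3.5% of cells with the highest doublet score in each library, 2 control and 3 rescued cells were Il10+. Some defining transcripts of other cell types were at or near 0, while others were not. In the 40 control Il10+ cells Cd79a, Ms4a1, Lyz2 and Cd8a had 0 UMIs. In the 110 rescued Il10+ cells Cd79a had 1, Lyz2 had 2, and Ms4a1 and Cd8a had 0. Cd79b had 10 control and 33 rescued UMIs in Il10+ cells, Igkc had 7 and 19, and Cd8b1 had 4 and 9. At least 1 UMI of a set of such markers, Cd8b1 included, was found in 3 of 40 control and 10 of 110 rescued Il10+ cells. In the whole libraries 282 of 3634 control and 266 of 3390 rescued cells had one. Over the whole lists, 4 control and 6 rescued of 10 B cell genes had a UMI in Il10+ cells, and their summed level was 299 and 520 CPM (counts scaled to a library total of 1e6), against 214 and 444 CPM in other cells. Of 10 myeloid genes 1 and 6 had a UMI, at 291 and 242 CPM against 168 and 202 CPM. Of 9 CD8 T and NK cell genes 3 and 4 had a UMI, at 339 and 197 CPM against 66.6 and 69.2 CPM, and of 5 red blood cell genes 0 and 1 did. These sums came mostly from Cd74 (51 and 285 UMIs), Cst3 (67 and 150 UMIs), Nkg7 (73 and 23 UMIs) and Gzma (0 and 95 UMIs), which Treg cells can also express, and their part in the results was not tested.

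Il10 (chromosome 1, 131019845 to 131024974 in mm10) was represented by 54 control UMIs (40.6 to 70.5), or 3.496 CPM, and by 238 rescued UMIs (209 to 270), or 15.3 CPM. The level in the rescued library was 4.38-fold higher, a log2 ratio of 2.13 (1.70 to 2.59). One rescued cell held 40 of the 238 UMIs, and without the cell of most Il10 UMIs in each library the log2 ratio was 1.98. An Il10 UMI was present in 1.10% of the control library (0.787 to 1.496%) and in 3.24% of the rescued library (2.67 to 3.90%). With every cell thinned to 1000 UMIs the shares were 0.330% and 0.826%, a ratio of 2.50 (1.23 to 5.40), and with every cell thinned to 2000 UMIs they were 0.560% and 1.82%, where 65 control and 33 rescued cells were too shallow and were left out.

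Free RNA in the droplets can place a UMI in a cell that does not express the gene. As a yardstick, cells with a UMI of Ly6c1 or Igfbp4, which mark resting Treg cells, were examined. An Il10 UMI was found in 5 of 1158 such control cells (0.432%, 0.140 to 1.005%, median depth 3926.5 UMIs) and in 2 of 233 such rescued cells (0.858%, 0.104 to 3.07%, median depth 4689 UMIs). Among all remaining cells the shares were 35 of 2476 (1.41%, 0.987 to 1.96%, median depth 3614 UMIs) and 108 of 3157 (3.42%, 2.81 to 4.12%, median depth 3786 UMIs). The 2 resting shares had wide intervals, which overlapped the intervals of the remaining cells.

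Most Il10+ cells stood at the limit that defined them. Exactly 1 Il10 UMI was found in 28 of the 40 control cells (70.0%) and in 76 of the 110 rescued cells (69.1%). In the control library 11 cells had 2 UMIs and 1 cell had 4. In the rescued library 9 cells had 2 UMIs and 25 cells (22.7%) had 3 or more, among them cells with 7, 9, 15 and 40. The upper end of the distribution thus held 1 control cell and 25 rescued cells with 3 or more UMIs.

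**Figure D1:**
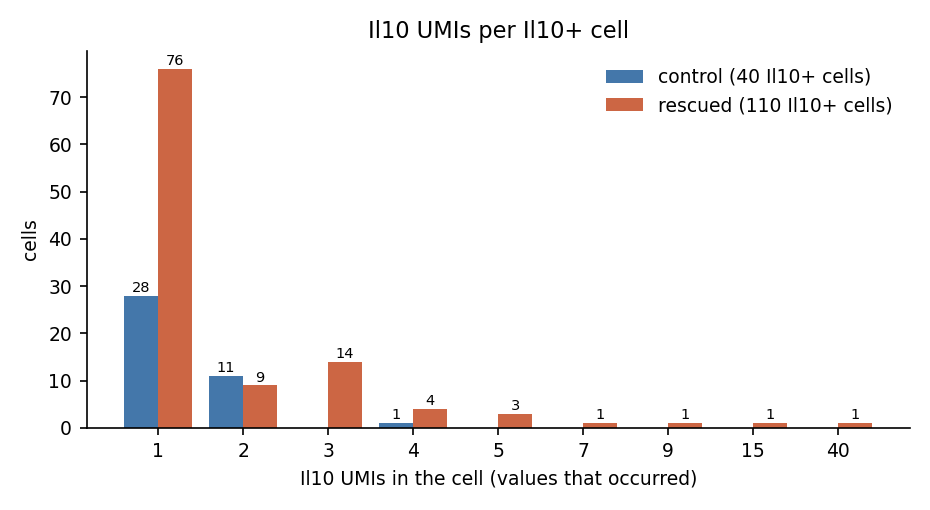
Number of cells (y axis) by the number of Il10 UMIs in the cell (x axis, only values that occurred), for the 40 control and 110 rescued Il10+ cells. Both libraries have most of their cells at 1 UMI, and all cells above 4 UMIs are rescued.

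Levels of other genes on either side of this limit were compared without a test. Maf, which encodes c-Maf, stood at 329 CPM in control cells with 0 Il10 UMIs, 1268 CPM with 1 UMI and 1936 CPM with 2 UMIs, and at 605, 1161 and 1527 CPM in rescued cells, where the 25 cells with 3 or more UMIs had 1557 CPM. Ctla4, a surface receptor that removes costimulatory ligands from antigen-presenting cells, stood at 461, 844, 1390 and 1885 CPM over the same 4 rescued classes. The rescued cell with 40 Il10 UMIs alone held 59 Ctla4 UMIs, and without it the highest class had 1677 CPM. Lag3, an inhibitory receptor, was at 75.3 CPM in rescued cells with 0 Il10 UMIs and at 317, 410 and 296 CPM in the classes with 1, 2 and 3 or more, and in control cells it was at 52.6, 597 and 1936 CPM with 0, 1 and 2 Il10 UMIs. Klf2, a transcription factor of resting and recirculating T cells, went the other way. In rescued cells it was at 411 CPM with 0 UMIs, 130 CPM with 1 UMI, 0 CPM with 2 UMIs and 31.5 CPM with 3 or more. In control cells it was at 857 CPM with 0 UMIs and at 101 CPM with 1 and with 2 UMIs, with no further fall. Cells with a single Il10 UMI thus already differed from cells with none. The single control cell with 4 Il10 UMIs had 986 CPM of Maf, 822 CPM of Lag3, 329 CPM of Ctla4 and 164 CPM of Klf2. With 2 Il10 UMIs Maf and Ctla4 were higher still in both libraries, Ctla4 in control cells at 260, 705 and 1011 CPM with 0, 1 and 2. Lag3 was higher still in control cells with 2 Il10 UMIs and did not go further up in rescued cells with 3 or more.

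The label of an effector Treg class was checked against genes other than Il10. All 9 Treg identity genes had UMIs in Il10+ cells of both libraries, and their summed level was 7625 CPM in control and 9006 CPM in rescued Il10+ cells, against 5789 and 7429 CPM in other cells. Foxp3 had a log2 ratio of Il10+ to other cells of 0.43 (-0.20 to 1.00) in the control and 0.01 (-0.16 to 0.17) in the rescued library, and Ikzf2, which encodes Helios, of 0.14 (-0.02 to 0.30) and 0.01 (-0.08 to 0.09). None of Il9r, Il18rap and Ccl5, genes proposed as markers of the class beside Il10, marked it in both libraries. Il9r, the interleukin-9 receptor, had 0 UMIs in control Il10+ cells and 6 UMIs in rescued Il10+ cells (9.14 CPM against 11.02 CPM in other cells). Il18rap, a subunit of the interleukin-18 receptor, had 5 and 4 UMIs, with log2 ratios of 1.65 (0.0004 to 2.92) and -0.82 (-2.71 to 0.57), the latter -2.79 without the cell that held 3 of the 4 UMIs. Ccl5, a chemokine for T cells and monocytes, was higher in control Il10+ cells (590 against 124 CPM) and lower in rescued Il10+ cells (117 against 188 CPM). Genes of activated and resting Treg cells, described next, went with the label in both libraries.

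To ask what distinguished Il10+ cells, counts were summed over the Il10+ and over the other cells of each library and expressed as CPM. Of 8769 genes with at least 200 UMIs, 43 (0.49%) were at least 2-fold higher in Il10+ cells in both libraries and 63 (0.718%) were at least 2-fold lower in both. The counting interval lay above 0 in both libraries for 37 of the 43 higher genes and below 0 in both for 13 of the 63 lower genes, many of which rested on few UMIs. The median log2 ratio over all genes was -0.01 in the control and -0.0023 in the rescued library. Ratios in the control library rested on 40 cells with 230412 UMIs and are the less precise. With other cells weighted to the depth of Il10+ cells, 40 genes were higher in both libraries, of which 35 were among the 43.

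**Figure D2:**
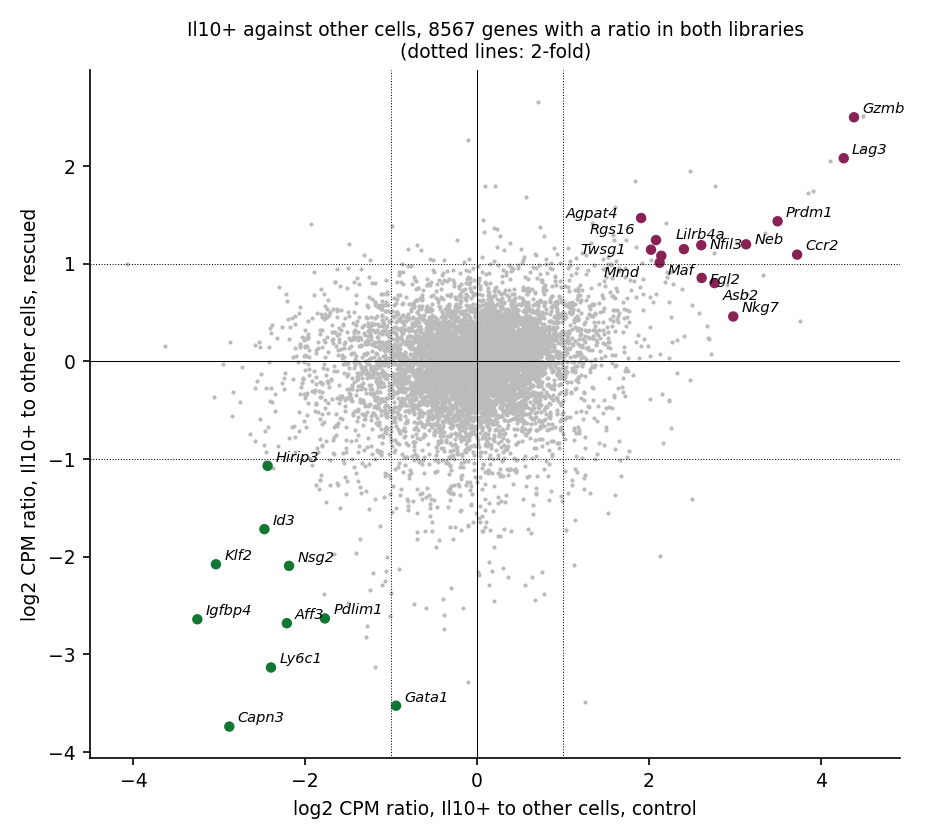
Log2 ratio of CPM in Il10+ to other cells in the control (x axis) and the rescued library (y axis), 1 point per gene. Names mark the 15 genes of highest mean ratio and the 10 of lowest mean ratio by the rule for naming, with Lag3 and Gzmb at the upper right and Klf2, Igfbp4 and Capn3 at the lower left.

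Transcription factors known to act on Il10 were examined first. Maf (chromosome 8, 115682942 to 115707794) stood at 1454 CPM in control Il10+ cells against 329 CPM in other control cells, and at 1282 CPM in rescued Il10+ cells against 605 CPM. The log2 ratios were 2.14 (1.98 to 2.30) and 1.08 (0.98 to 1.18). Maf transcripts were found in 36 of 40 and 105 of 110 Il10+ cells. Prdm1 (chromosome 10, 44437177 to 44528501), which encodes Blimp-1, stood at 178 against 15.8 CPM in the control library and at 143 against 53.0 CPM in the rescued library, with log2 ratios of 3.496 (2.98 to 3.98) and 1.44 (1.11 to 1.75). Nfil3, a basic leucine zipper factor that can bind the Il10 locus, had ratios of 2.61 (1.82 to 3.31) and 1.19 (0.72 to 1.63). Between rescued and control Il10+ cells the log2 ratios of these 3 factors were -0.18, -0.31 and -0.16, with intervals that included 0, while between other cells they were 0.88, 1.75 and 1.26. Of 18 regulators of Il10 tested, 4 were at least 2-fold higher in both libraries (Maf, Prdm1, Nfil3 and the AP-1 factor Fosl2, the last on 3 and 17 UMIs) and 0 were lower. Among all genes 0.49% were higher and 0.718% lower. The median of the mean log2 ratios was 0.92, against -0.02 over all genes. Gata3, a factor of type 2 responses and of tissue Treg cells, had ratios of 0.53 (0.10 to 0.93) and 0.12 (-0.15 to 0.37). Tbx21 (T-bet) had 4 UMIs in the Il10+ cells of each library. Stat3, the factor through which the IL-10 receptor signals, had ratios of -0.05 and 0.05.

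Receptors and effector molecules gave some of the highest ratios. Lag3 (chromosome 6, 124904361 to 124911705) stood at 1011 CPM in control Il10+ cells against 52.6 CPM in other control cells, a log2 ratio of 4.27 (4.05 to 4.48), and at 318 against 75.3 CPM in the rescued library, a ratio of 2.08 (1.86 to 2.30). A Lag3 UMI was found in 67.5% of control and 59.1% of rescued Il10+ cells, against 9.49% and 16.6% of other cells, and at 1000 UMIs per cell in 35.0% and 20% against 3.59% and 5.95%. Gzmb (chromosome 14, 56258838 to 56262260), the protease granzyme B, stood at 217 against 10.4 CPM and at 190 against 33.7 CPM, with ratios of 4.39 (3.90 to 4.85) and 2.50 (2.21 to 2.79). Gzmb was carried by few cells, 5 of 40 and 12 of 110. One control cell held 35 of the 50 UMIs and 1 rescued cell held 40 of the 125 UMIs, and without these cells the ratios were 2.68 and 1.96. In the control, 49 of the 50 Gzmb UMIs were in cells with exactly 1 Il10 UMI, and for the 12 control cells with 2 or more the ratio was 0.24, against 2.52 for the 34 rescued cells.

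Among 14 suppressor molecules tested, 4 were at least 2-fold higher in both libraries (Ctla4, Gzmb, Lag3 and Itgb8) and 0 were lower, with a median of 0.96. The shares over all genes were 0.49% higher and 0.718% lower. Itgb8, an integrin chain that activates latent TGF-beta, had ratios of 1.53 and 1.07. Fgl2, a secreted fibrinogen-like suppressor molecule, stood at 213 against 34.8 CPM in the control and at 236 against 131 CPM in the rescued library (2.61 and 0.86). Tgfb1 had ratios of 0.47 in both. Of 8 inhibitory receptors, 3 were at least 2-fold higher in both (Lag3, Tigit and Lilrb4a), with a median of 0.98. Tigit rested on 2 and 16 UMIs, and Lilrb4a (2.41 and 1.15) has a close relative with which reads can be shared.

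**Figure D3:**
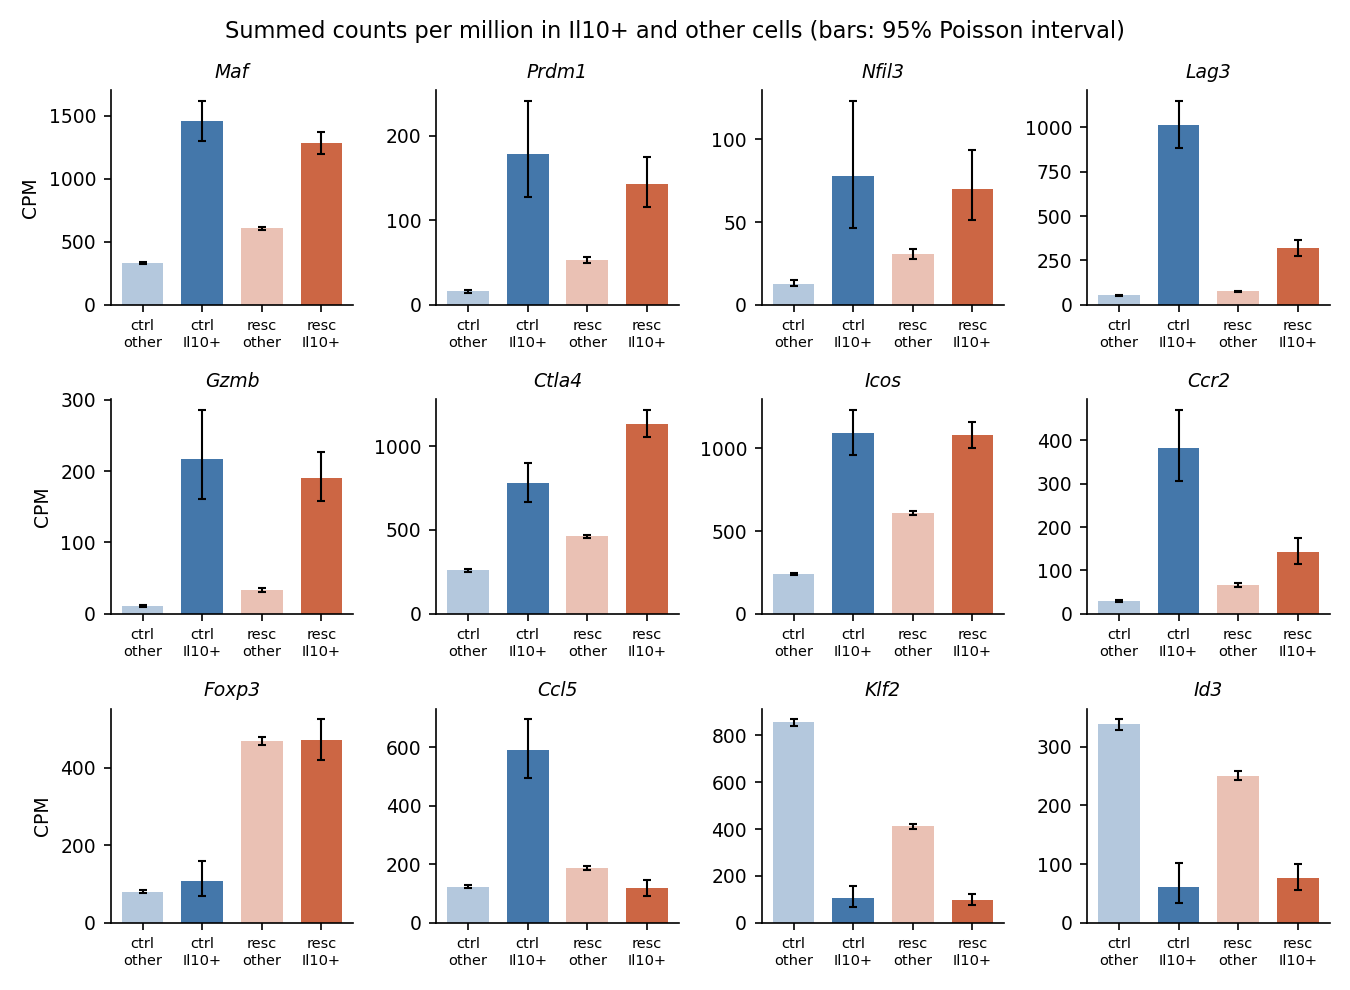
Level in CPM of 12 genes (y axes, each from 0) in other and Il10+ cells of the control (ctrl, blue) and rescued (resc, orange) library, with 95% Poisson intervals as bars. Maf, Prdm1, Nfil3, Lag3, Gzmb, Ctla4, Icos and Ccr2 are higher, and Klf2 and Id3 lower, in Il10+ cells of both libraries, while Ccl5 is higher in the control and lower in the rescued Il10+ cells.

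Activation and effector Treg genes were higher as a group. Some of these genes had been named in the study from the same libraries, so the list is not independent evidence of its direction. Of 16 genes tested, 5 were at least 2-fold higher in both libraries (Tnfrsf1b, Ctla4, Maf, Prdm1 and Tigit) and 0 were lower, against 0.49% and 0.718% of all genes. All 16 had a mean log2 ratio above 0, with a median of 1.00. Ctla4 stood at 777 against 260 CPM in the control and at 1132 against 461 CPM in the rescued library (1.58 and 1.30). Icos, a costimulatory receptor on which many effector Treg cells depend, stood at 1089 against 239 CPM (2.19, 1.996 to 2.37) and at 1077 against 611 CPM (0.82, 0.71 to 0.93). Tnfrsf1b, the TNF receptor TNFR2, had ratios of 1.85 and 1.18. At least 1 of Icos and Maf was detected in 38 of 40 control and 109 of 110 rescued Il10+ cells, against 54.9% and 85.8% of other cells.

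Resting genes were lower as a group. Of 14 tested, 6 were at least 2-fold lower in both libraries (Klf2, S1pr1, Igfbp4, Ly6c1, Bcl2 and Id3) and 0 were higher, against 0.718% and 0.49% of all genes. All 14 had a mean ratio below 0, with a median of -1.18. Klf2 (chromosome 8, 72319033 to 72321656) stood at 104 CPM in control Il10+ cells against 857 CPM in other cells, and at 97.5 against 411 CPM in the rescued library, with ratios of -3.04 (-3.68 to -2.47) and -2.08 (-2.46 to -1.72). S1pr1, the receptor for lymphoid organ exit that KLF2 induces, had ratios of -1.83 and -1.21. Id3, an inhibitor of E protein transcription factors, stood at 60.8 against 338 CPM and at 76.2 against 250.4 CPM (-2.48 and -1.72). Ly6c1, whose reads can be shared with close relatives, had 6 and 2 UMIs in Il10+ cells. Igfbp4 had 3 UMIs in control Il10+ cells (-3.26, -5.54 to -1.71) and 0 UMIs in rescued Il10+ cells, which at a floor of 3 counts gives a log2 ratio of -2.64 or lower. Tcf7, the factor TCF-1 of resting and memory T cells, had ratios of -0.99 and -1.54.

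The remaining genes named by rule had mixed functions. Higher in Il10+ cells of both libraries were Ccr2, the receptor for monocyte chemokines (3.72 and 1.09), the muscle filament gene Neb (3.13 and 1.20), the ubiquitin ligase adaptor Asb2 (2.76 and 0.80), Agpat4, an enzyme of phospholipid synthesis (1.91 and 1.47), Rgs16, which limits G protein signalling (2.08 and 1.24, or 1.44 in the control without a cell with 11 of 28 UMIs), Twsg1, a secreted modulator of bone morphogenetic proteins (2.02 and 1.14), and Mmd (2.12 and 1.01). Nkg7, a protein of cytotoxic granules, stood at 317 against 40.2 CPM in the control library (2.98, 2.61 to 3.33) and at 35.05 against 25.5 CPM in the rescued library (0.46, -0.21 to 1.07). One control cell held 40 of the 73 Nkg7 UMIs, and without the cell with most Nkg7 UMIs in each library the ratios were 1.91 and -0.15. Among cells with 2 or more Il10 UMIs the Nkg7 ratios were -0.12 in the control and 0.80 in the rescued library. Lower in both libraries were the calpain gene Capn3 (-2.88 and -3.74 on 2 and 3 UMIs), Aff3 (-2.21 and -2.68 on 2 and 3 UMIs), Pdlim1 (-1.77 and -2.63), Nsg2 (-2.19 and -2.09) and Hirip3 (-2.44 and -1.07 on 1 and 7 UMIs). Gata1, known for red cell development, had 0 and 1 UMIs in Il10+ cells against 381 and 261 UMIs in other cells, or -0.94 or lower in the control at a floor of 3 counts and -3.52 (-8.83 to -1.03) in the rescued library.

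Homing receptors, cytokine receptors and cytokines were then described. Of 18 homing receptors and integrins tested, 4 were at least 2-fold higher in both libraries (among them Ccr2, Cxcr6 and Itgb8) and 0 were lower, with a median of 0.63. Over all genes 0.49% were higher and 0.718% lower. Cxcr6, a receptor of tissue-seeking T cells, stood at 208 against 9.27 CPM in the control and at 44.2 against 7.73 CPM in the rescued library (4.49 and 2.52). Of 18 cytokine receptors, 0 were at least 2-fold higher or lower in both libraries and the median was 0.11. The 8 genes of the IL-10 receptor and its response gave 0 higher and 0 lower, with a median of -0.22. Il10ra had ratios of 0.01 (-1.13 to 0.95) and -0.25 (-0.77 to 0.22), and Socs3, a feedback inhibitor that STAT3 induces, of 0.41 (-0.03 to 0.83) and -0.45 (-0.73 to -0.18). Of 8 cytokines and chemokines tested, 0 were 2-fold higher or lower in both, with a median of -0.12. Several cytokines of helper T cells had few UMIs in Il10+ cells. Il4 had 0 and 1 UMIs, Il13 and Csf2 had 0 in both, Ifng had 3 and 5 and Il21 had 3 and 0 UMIs. Ccl4, the chemokine MIP-1 beta, had 68 control UMIs in 1 cell and 33 rescued UMIs in 3 cells.

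The remaining gene lists are described by their medians, which were 0.26 for Treg identity, 0.67 for tissue-repair, 0.48 for follicular-like, 0.61 for recent T cell receptor (TCR) stimulation, -0.11 for cell cycle, 0.15 for glycolysis, 0.08 for dissociation stress and 0.02 for interferon response genes. Of these lists, Treg identity had 1 gene at least 2-fold higher in both libraries (Ctla4), tissue repair had 1 (Nfil3) and interferon response had 2 (Isg15 and Rsad2), and the others had 0. The share of all genes was 0.49%, and in lists this short 1 or 2 genes are not a result about the list. Lists in this report share members, so their counts are not separate results. Ctla4, Maf, Prdm1, Nfil3, Lag3 and Itgb8 each count as higher in more than 1 list. The dissociation stress genes, which respond to tissue handling, had medians of 0.02 in the control and 0.13 in the rescued library.

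Subsets defined by other genes overlapped the Il10+ cells in part. Itgae, the integrin chain CD103 of tissue Treg cells, was detected in 15 of 40 control (37.5%) and 78 of 110 rescued Il10+ cells (70.9%), against 16.5% and 56.4% of other cells, and at 1000 UMIs per cell in 17.5% and 28.2% against 6.34% and 23.5%. A UMI of Areg, Klrg1 or Il1rl1, genes of tissue-repair Treg cells, was found in 15% of control and 22.7% of rescued Il10+ cells, against 6.84% and 14.1% of other cells. These members differed. Klrg1 was found in 15% and 15.5% of Il10+ cells (3.23% and 8.20% of other cells), Areg in 0% and 9.09% (1.78% and 3.41%) and Il1rl1 in 0% and 3.64% (3.53% and 5.61%). Gzma or Gzmb was found in 12.5% and 13.6% of Il10+ cells, against 1.45% and 5.15% of other cells. Lag3, found in 92 of 150 Il10+ cells, and Prdm1, found in 69, occurred together in 45, while 34 had neither. Whether these numbers differ from independent occurrence was not tested.

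Set against like subsets without Il10, many of the leading genes were still higher, but not every one in both libraries. Against cells with Itgae but no Il10, the ratios were 3.51 and 2.42 for Lag3, 3.28 and 2.23 for Gzmb, 2.38 and 1.28 for Prdm1, 1.45 and 1.02 for Maf and 1.03 and 1.18 for Ctla4, and Klf2 was lower (-2.37 and -1.89). Against cells with Areg, Klrg1 or Il1rl1 but no Il10, Lag3 (4.63 and 2.64), Prdm1 (1.80 and 1.10) and Maf (1.11 and 0.75) were higher in Il10+ cells of both libraries, while Ccr2 was 1.48 higher in the control and -0.60 (-0.93 to -0.28), thus lower, in the rescued library. Against cells with Lag3 but no Il10, Prdm1 (2.43 and 0.79), Gzmb (2.81 and 2.82), Maf (1.04 and 0.52) and Ctla4 (1.14 and 1.04) were higher and Id3 (-2.14 and -1.38) and Klf2 (-1.60 and -1.10) were lower. There the rescued intervals of Nfil3 (0.23), Rgs16 (0.18), Twsg1 (0.35), Mmd (0.04) and Nkg7 (0.02) included 0, and Lag3, which defines that subset, was at -0.34. So did the rescued intervals of Nkg7 against the Itgae subset (0.30), and of Asb2 (0.34) and Nkg7 (0.0003) against the Areg, Klrg1 or Il1rl1 subset. In the control, the interval of Lilrb4a against that last subset (0.35) included 0. The control ratios of Gzmb against these subsets include the cell that held 35 of its 50 UMIs, and they were not computed without it.

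Il10+ cells were not spread evenly over the cell states. Cells were placed in 9 clusters from which Il10 was left out. Cluster 3, led by Neb, Klrg1, Fgl2 and Prdm1, held 18 of the 40 control Il10+ cells (45.0%) but 4.84% of other control cells, and 59 of the 110 rescued Il10+ cells (53.6%) but 25.8% of other rescued cells. Within that cluster 9.38% of control (5.65 to 14.4%) and 6.52% of rescued cells (5.00 to 8.33%) had an Il10 UMI. Cluster 5, led by Pdcd1, Lag3 and Tox2, held 9 control and 17 rescued Il10+ cells, or 2.21% (1.01 to 4.15%) and 4.82% (2.83 to 7.60%) of its cells. Cluster 7, led by Il1r2, Penk and Marcksl1 and holding Nr4a1 among its leading genes, had an Il10 UMI in 2 of its 241 control cells (0.830%, 0.101 to 2.97%) and in 22 of its 336 rescued cells (6.55%, 4.15 to 9.75%). In clusters 1 and 4, whose leading genes between them include Ly6c1, Igfbp4 and Gata1, 1 control cell each and 0 rescued cells were Il10+. Cluster 3 was 82.5% rescued and cluster 1 was 94.9% control, and with 1 library per group such clusters may reflect the library. Il10+ cells lay near one another. Of the 15 nearest neighbours of an Il10+ cell, 14.0% in the control and 13.6% in the rescued library were Il10+, against 0.970% and 2.84% for other cells.

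**Figure D4:**
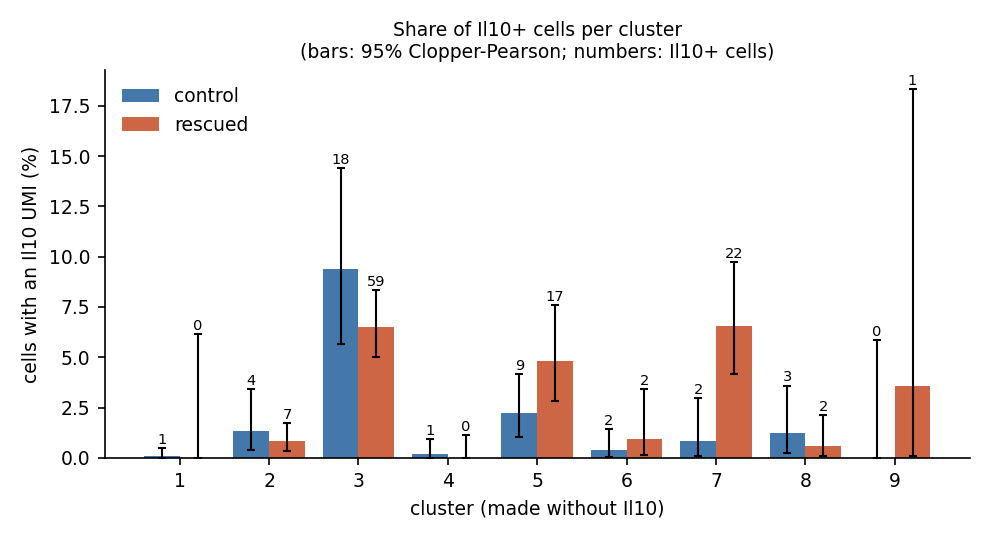
Share of cells with at least 1 Il10 UMI (y axis, percent) in each of 9 clusters made without Il10 (x axis), for control (blue) and rescued (orange) cells, with 95% Clopper-Pearson intervals and the number of Il10+ cells above each bar. Cluster 3 is high in both libraries, and cluster 7 is 0.830% in control and 6.55% in rescued cells.

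When Il10+ cells were compared with other cells of their own cluster, the differences were smaller. The medians were then 0.26 for activation, -0.36 for resting genes and 0.33 for regulators of Il10, and 18 genes were at least 2-fold higher in both libraries, of which 17 were among the 43. Lag3 (2.71 and 1.56), Gzmb (2.49 and 2.01), Prdm1 (1.62 and 1.00) and Ccr2 (1.88 and 1.13) were among the 17. The control value of Gzmb includes the cell of cluster 3 that held 35 of its 50 UMIs, and it was not computed without that cell. Maf was then 0.70 and 0.71 higher, and Klf2 had ratios of -1.76 and -1.03. Other genes named above were under 2-fold in both libraries, among them Asb2 (0.81 and 0.30), Lilrb4a (0.30 and 0.58), Fgl2 (0.86 and 0.60) and Icos (0.76 and 0.39). Asb2, Lilrb4a and Fgl2 were themselves among the leading genes of cluster 3. Ly6c1 had ratios of 0.11 and -1.05, and Ikzf2 of -0.62 and -0.22.

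Rescued and control cells were then compared inside the class. Of 3307 genes with at least 50 UMIs in Il10+ cells, 73 (2.21%) were at least 2-fold higher and 35 (1.06%) at least 2-fold lower in rescued Il10+ cells, and the median log2 ratio was 0.02. The same genes had a median of 0.03 between the other cells of both libraries. The groups differed in genotype, in the history of Foxp3 and in the capture, and these cannot be told apart.

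Among genes with at least 100 UMIs in Il10+ cells, the highest ratio belonged to Foxp3 (chromosome X, 7573644 to 7595245), with 25 control and 309 rescued UMIs, or 109 and 471 CPM. The log2 ratio was 2.12 (1.53 to 2.77) inside the class and 2.54 (2.45 to 2.63) among other cells. Foxp3 was read from a different engineered allele in each library, so these counts come from different transcripts. Lrrc32, which encodes GARP, the anchor of latent TGF-beta on Treg cells, stood at 43.4 and 180 CPM (2.05, 1.12 to 3.15) inside the class and had a ratio of 0.95 among other cells. Il4ra, the interleukin-4 receptor chain, stood at 60.8 and 163 CPM (1.42, 0.61 to 2.34), and Gpr83, a receptor typical of Treg cells, at 60.8 and 155 CPM (1.36, 0.54 to 2.28). Ccr9, a gut-homing receptor, stood at 82.5 and 189 CPM (1.20, 0.49 to 1.98), and because 13 of the 19 control UMIs were in 1 cell the ratio without the cell with most Ccr9 UMIs in each library was 2.64. A Ccr9 UMI was found in 10% of control and 21.8% of rescued Il10+ cells, and in 4.98% and 11.7% of other cells. The higher share in the rescued library was thus not particular to the class. Kbtbd11 (1.34), Atp11b (1.23) and Mgst2 (1.23) were also among the highest. For these, Il4ra and Gpr83 the ratio among other cells is not given here, so they are not called particular to the class.

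Some genes of recent TCR stimulation, which are induced within hours of antigen contact, were higher in rescued Il10+ cells. Of 8 tested inside the class, 4 were at least 2-fold higher (Nr4a1, Egr1, Egr2 and Nfkbid), 0 were lower, and the median was 1.16, against 0.02 between other cells. Over all genes tested inside the class 2.21% were higher and 1.06% lower. The other 4 were Cd69 (0.88, 0.25 to 1.56), Cd5 (0.33, -0.08 to 0.76), Nfkbia (0.07, -0.19 to 0.33) and Rel (-0.003, -0.78 to 0.83). Egr1, an immediate early transcription factor, stood at 56.4 CPM in control and 177 CPM in rescued Il10+ cells (1.65, 0.82 to 2.60), and at 48.8 and 50.9 CPM in other cells. Nr4a1 stood at 21.7 and 125 CPM (2.53, 1.25 to 4.19) on 5 and 82 UMIs, and at 23.3 and 26.01 CPM in other cells. Nfkbid, a nuclear inhibitor of NF-kappaB that is itself induced by TCR signals, stood at 52.1 and 142 CPM (1.44, 0.57 to 2.45), and at 49.9 and 51.7 CPM in other cells. Within clusters the ratios were 1.499 for Egr1 and 1.504 for Nfkbid. The dissociation stress list, part of which responds to handling as quickly, had a median of -0.35 inside the class and -0.38 between other cells. Its members differed in direction, so that the median does not describe them singly. Its immediate early gene Ier2 was higher (1.17, 0.50 to 1.91) and its heat shock gene Hspa1b lower (-3.26) in rescued Il10+ cells, and Fos, on 4 and 35 UMIs and thus under the minimum, had a ratio of 1.62 (0.14 to 3.57). The part of handling in the higher immediate early genes was not tested.

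The lowest ratios inside the class included genes that were high in control Il10+ cells. Lag3 had 233 control and 209 rescued UMIs, or 1011 and 318 CPM, a log2 ratio of -1.67 (-1.94 to -1.39). Among other cells it was 0.52 higher in the rescued library, and without the cell with most Lag3 UMIs in each library the ratio inside the class was -1.63. Ccr2 stood at 382 and 142 CPM (-1.43, -1.87 to -0.99), against 1.20 among other cells. Id2, an inhibitor of E proteins that effector T cells express, stood at 304 and 99.05 CPM (-1.62, -2.13 to -1.11), against 0.49 among other cells. Emb (-1.44), S100a4 (-1.11, or -0.89 without the cell with most of its UMIs in each library), Cyfip2 (-1.06), the heat shock gene Hsph1 (-1.01) and Tagln2 (-0.92) followed. Within clusters the ratio of S100a4 was only -0.27, while those of Emb, Cyfip2 and Tagln2 were -1.56, -0.70 and -1.04. Because the ratio among other cells is not given here for Emb, S100a4, Cyfip2 and Tagln2, they are not called particular to the class. Hsph1 had nearly the same ratio among other cells (-1.04), so that it was not particular to the comparison inside the class.

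Some of the lowest ratios rested on single cells. Ccl4 stood at 295 and 50.3 CPM (-2.55, -3.20 to -1.93), but all 68 control UMIs were in 1 cell of 12467 UMIs, which also held 40 Nkg7 and 25 Lag3 UMIs, and 30 of the 33 rescued UMIs were in 1 cell. Ccl5 had 136 control and 77 rescued UMIs (-2.33, -2.75 to -1.92). One control cell held 68 of the 136 UMIs, and without the cell with most Ccl5 UMIs in each library the ratio was -1.56. A Ccl5 UMI was found in 22.5% of control (10.8 to 38.5%) and 21.8% of rescued Il10+ cells (14.5 to 30.7%), so that the levels differed while the shares of cells differed by less than counting error.

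**Figure D5:**
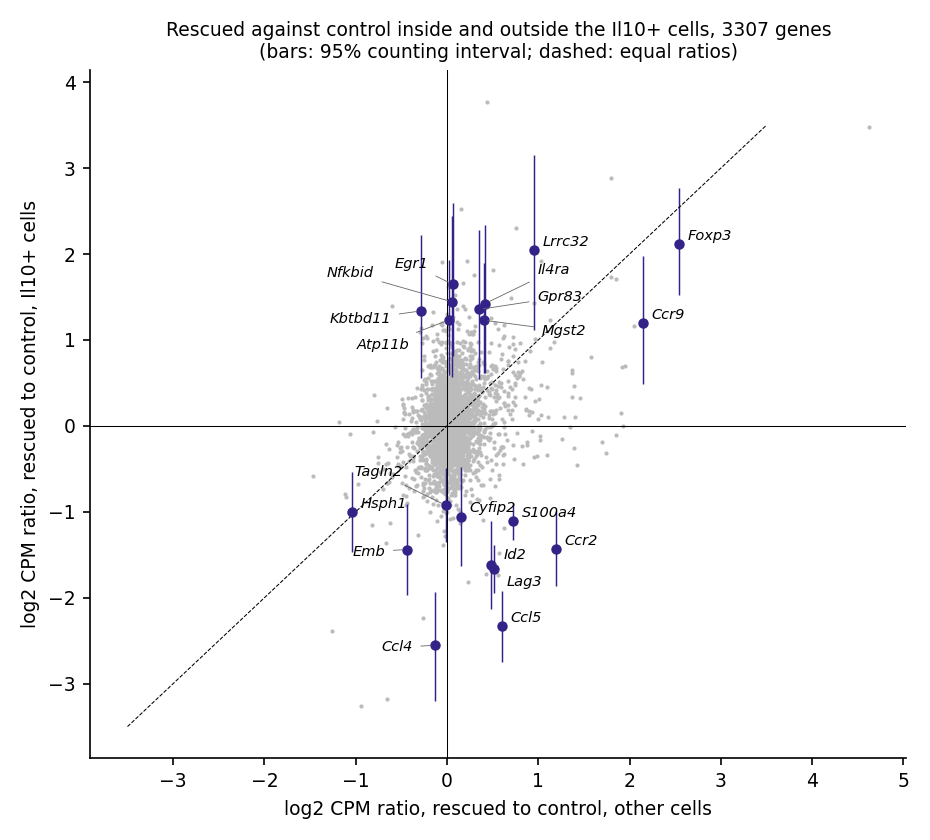
Log2 ratio of CPM in rescued to control cells among Il10+ cells (y axis, with 95% counting intervals for named genes) against the same ratio among other cells (x axis), 1 point per gene, with the line of equal ratios dashed. Foxp3 lies near that line, Egr1 and Nfkbid are higher in rescued cells only on the y axis, and Lag3, Ccr2, Id2 and Ccl5 are lower in rescued Il10+ cells and higher in other rescued cells.

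The gene groups that set Il10+ cells apart from other cells differed less between the libraries inside the class. Over all genes tested there, 2.21% were at least 2-fold higher and 1.06% at least 2-fold lower in rescued cells. The lists are short, so that 1 gene past 2-fold is not a result about its list. Of 14 activation and effector genes tested, 2 were at least 2-fold higher in rescued Il10+ cells (Klrg1 and Itgae) and 0 lower, with a median of 0.31, against 0.85 between other cells. Of 8 resting genes, 1 was at least 2-fold lower (Ccr7, at 143 and 27.4 CPM), with a median of -0.27 (0.12 within clusters), against -1.01 between other cells. Of 15 regulators of Il10, 1 was higher (Egr2) and 1 lower (Id2), with a median of -0.09. Maf had a ratio of -0.18 (-0.37 to 0.01), Prdm1 of -0.31 (-0.86 to 0.25) and Icos stood at 1089 and 1077 CPM. Of 12 suppressor molecules, 3 were at least 2-fold higher (Gzma, Lrrc32 and Areg) and 1 lower (Lag3), with a median of 0.13. Gzma had 0 control and 95 rescued UMIs, of which 84 were in 1 cell, and Areg, a growth factor of tissue repair, had 0 control and 63 rescued UMIs in 10 cells. Of 15 homing genes, 2 were higher (Ccr9 and Itgae) and 2 lower (Ccr2 and Cxcr6). Of 5 inhibitory receptors 1 was higher and 1 lower, of 12 cytokine receptors 1 was higher (Il4ra), of 5 cytokines 3 were lower (Ccl5, Ccl4 and Tnfsf8), and of 6 genes of the IL-10 receptor and its response 0 were higher or lower, with a median of 0.16.

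The fate reporter tdTomato was examined in the same cells. It stood at 495 CPM in control Il10+ cells against 388 CPM in other control cells, and at 922 against 652 CPM in the rescued library, with log2 ratios of 0.35 (0.07 to 0.62) and 0.50 (0.38 to 0.62). A tdTomato UMI was found in 34 of 40 control Il10+ cells (85%, 70.2 to 94.3%) and 62.7% of other control cells, and in 71 of 110 rescued Il10+ cells (64.5%, 54.9 to 73.4%) and 55.6% of other rescued cells. At 1000 UMIs per cell the shares were 35.0% against 28.05% and 34.5% against 31.2%. These shares cannot be read as shares of fate-mapped cells. By flow cytometry the paper found tdTomato in a small part of control and in most rescued Treg cells at this age. The shares with a UMI, as counted, were instead higher in the control library. With 4 or more tdTomato UMIs they were 25% against 12.7% in the control and 34.5% against 23.5% in the rescued library. Within clusters the ratios of Il10+ to other cells were -0.01 in the control and 0.33 in the rescued library.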

How the data were processed

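The authors made the deposited counts with Cell Ranger 3.0 on mm10 (GRCm38) with tdTomato added, and their notes also name Seurat 3.1.5. The counts are whole numbers of UMIs per gene for 7024 cells and 16098 genes, without normalization, and all cells were used. Their normalized log table was not used, and other per-sample columns not used numbered 0. Libraries were taken from cell name prefixes. Counts were summed over cells and expressed as CPM. Intervals at 95% are exact Poisson for sums, Clopper-Pearson for shares and conditional exact for CPM ratios. A count of 0 was set to 3 counts, as a bound, and list medians hold such genes at their bound and leave out genes without a usable ratio. Doublet scores came from Scrublet in scanpy 1.11.5, and no cell was removed for the main values. Clusters used 2000 variable genes without Il10, 40 principal components, 15 neighbours and leidenalg 0.10.2. Scripts ran in Python 3.11.15 with numpy 2.4.6 and scipy 1.17.1 and were tested on simulated data. Coordinates are from GENCODE on the same build.

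The class, gene lists and comparisons were chosen with earlier results of these data known. Named by rule were the 15 highest and 10 lowest genes by mean log2 ratio of Il10+ to other cells (at least 500 UMIs, same direction in both libraries) and the 10 highest and 10 lowest of rescued to control Il10+ cells (at least 100 UMIs), without mitochondrial, ribosomal, immunoglobulin and TCR genes. Il10, the other proposed markers, Foxp3, tdTomato, Maf, Prdm1, Gata3, Tbx21, Ikzf2 and list members were added, and some genes of the rule and lists are not reported here. Alternatives changed the class limit, depth, gene minimum, averaging, doublets, cells of other lineages, mitochondrial share and cluster.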

Additional observations from a re-analysis of the deposited data

Results flagged for a closer look

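Among the genes named or listed, those whose Il10+ to other cell log2 ratios had opposite signs in the libraries, with a size of at least 0.5 and an interval that left out 0 in both, were sought. They numbered 3, all of which stood above other cells in the control library and below them in the rescued library. The difference between the libraries (rescued minus control log2 ratio) was not tested, since each had 1 library. For Ccl5 it was -2.93, from ratios of 2.25 and -0.68, and without the Il10+ cell with most Ccl5 UMIs in each library the ratios were 1.29 and -0.87. For Cyfip2, which acts in actin regulation, it was -1.21, from 0.70 and -0.52. For Hspa1b, an inducible heat shock gene whose reads can be shared with Hspa1a, it was -2.32, from 1.11 (54 UMIs in 13 cells) and -1.22 (16 UMIs in 11 cells).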

How the results depend on the processing

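No paired analysis was possible because control and rescued cells came as a single library each, and for the same reason no replicate could be left out. A level, share or median is given here if it left its 95% counting interval, which for a list is the median of its genes' bounds, and a number of genes if it differed by over 1.5 times. Of 112 values that answer a comparison, 19 did so and 93 did not. Among the 93, the median of resting genes inside the class changed sign within its interval, from -0.27 to 0.12 within clusters. Leaving out the Il10+ cell with most UMIs of a gene was chosen after seeing the data, and it shifted 10 of 91 single-gene values this far, of which those of genes reported here are given above.

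With 2 or more Il10 UMIs (12 control and 34 rescued cells), 95 genes were at least 2-fold higher in Il10+ cells of both libraries, of which 28 were among the 43, 78 were lower, of which 8 were among the 63, and inside the class 354 were higher and 158 lower in rescued cells. At 1000 UMIs per cell these counts were 139, 434 and 276, 53 genes were lower in Il10+ cells, of which 5 were among the 63, and the log2 ratio of the Il10 level was 1.56. The lower genes thus kept their number but mostly not their members. With a higher gene minimum they were 22, 18 and 9, and 31 genes were lower in Il10+ cells. With no minimum they were 184, 811 and 550. Fewer cells, fewer UMIs or lower genes widen the counting error of each ratio. With means of per-cell shares, 103 genes were lower in Il10+ cells. Within clusters 18 genes were higher, and the medians were 0.26 for activation, -0.36 for resting genes and 0.33 for regulators of Il10. Counts of genes thus depend on the limits chosen, and 40 control cells limit every ratio inside the class.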
